A study of Mus musculus with 7 samples.

Results

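Granule-rich neutrophils are neutrophils whose mRNA held a high share of Ngp, Camp and Ltf, 3 genes for proteins that the cell packs into its specific granules. They were chosen in 2 of the 7 libraries of the series: CD45+ leukocytes of the heart 1 day after infarction, and a pool of myeloid cells from blood and heart. A cell barcode was kept when it had at least 200 genes and at most 10% of its unique molecular identifiers (UMIs, each standing for 1 captured transcript) from mitochondrial genes. It was taken as a neutrophil with at least 50 UMIs of S100a8 and S100a9 together, and in the pool also with at least 5 UMIs of the Ly6G antibody. It was taken as granule-rich when Ngp, Camp and Ltf together made up at least 0.5% of its gene UMIs, so the cells were chosen by the measured levels of these 5 genes and, in the pool, of 1 antibody. These limits found 79 granule-rich cells among 309 neutrophils in the day 1 library, a share of 25.6% (exact 95% binomial interval 20.8 to 30.8%). This share depends on what counts as a neutrophil: among cells with at least 10% of their UMIs from S100a8 and S100a9 it was 58.5% (72 of 123). In the blood and heart pool they found 15 among 7090, a share of 0.212% (0.118 to 0.349%). The 94 cells came from 552 and 11826 barcodes, and the series held 22630 in all. The remaining 230 and 7075 neutrophils of the same libraries served as comparison neutrophils. All intervals given cover counting error only.

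The study followed inflammation of the mouse heart after lasting ligation of the left descendant coronary artery, a model of myocardial infarction, in C57BL6/J mice. The day 1 library came from male mice, with the hearts of 5 animals collected 1 day after ligation. The mice had received anti-CD45.2 antibody into a vein before death, and viable CD45+ cells that this antibody had not reached were sorted. A step that lowered neutrophil numbers preceded the sort, and the library used 3' chemistry version 2. The pool joined cells of mice aged 8 to 10 weeks: no surgery (3 mice), sham surgery with day 1 (3) or day 3 (3) sampling, and infarction with day 1 (5) or day 3 (5) sampling. Its cells came from blood or from ischemic heart, were sorted as viable Ter119-B220-NK1.1-CD11b+ cells, and were adjusted to about equal numbers of Ly6G+ and Ly6G- cells. They carried 7 hashtag antibodies, which mark the sample of origin, and 14 antibodies against surface proteins. Which hashtag stood for which condition was not given in the sources used here, so each is described by its number. Each condition of the CD45+ series is 1 library, and cells are not replicates, so no p-value is given. Granule-rich cells are compared with other neutrophils of their own library, and shares set across libraries compare single libraries and not conditions.

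A neutrophil fills its granules in the bone marrow, one kind after the other. Azurophil granules with myeloperoxidase and serine proteases are made first, specific granules with lactoferrin and the cathelicidin precursor next, and gelatinase granules and secretory vesicles last. The mRNAs of each set are largely switched off before the cell enters blood, so Ngp, Camp and Ltf mRNA is commonly used to recognise neutrophils that left the marrow early. Ngp encodes neutrophilic granule protein, Camp the cathelicidin precursor and Ltf the iron-binding lactoferrin. S100a8 and S100a9 encode the calcium-binding proteins that fill the cytosol of neutrophils.

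Ngp, Camp and Ltf all lie on chromosome 9 (GRCm38): Ngp at chr9:110419747-110423012 on the plus strand, Camp at chr9:109847379-109849617 on the minus strand and Ltf at chr9:111019271-111042767 on the plus strand. Their promoters are shown because the 3 genes define the cells, and those of Itgb2l and Cd177 because these genes were among the most different outside the rule. Transcription factors of the C/EBP family, among them C/EBP epsilon, are known to drive specific granule genes. The sequences come from RefSeq (GRCm38.p6), read 5' to 3' on the gene's strand. Each is the part of the 250 bases before the RefSeq start that lies outside the gene's own annotated transcripts. Capitals mark a match to the C/EBP-type motif TTNNGNAA on either strand, which reads TTNCNNAA on the reverse strand.
Ngp: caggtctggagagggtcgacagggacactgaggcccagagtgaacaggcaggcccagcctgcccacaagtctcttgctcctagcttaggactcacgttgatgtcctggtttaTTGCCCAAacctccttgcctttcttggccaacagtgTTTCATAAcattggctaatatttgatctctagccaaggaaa
Ltf: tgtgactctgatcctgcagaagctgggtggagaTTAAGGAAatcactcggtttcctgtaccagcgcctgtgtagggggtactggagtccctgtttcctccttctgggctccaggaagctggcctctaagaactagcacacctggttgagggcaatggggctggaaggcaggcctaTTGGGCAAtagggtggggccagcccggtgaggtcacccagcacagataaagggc
Camp: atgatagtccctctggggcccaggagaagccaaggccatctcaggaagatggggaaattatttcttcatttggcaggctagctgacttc
Itgb2l: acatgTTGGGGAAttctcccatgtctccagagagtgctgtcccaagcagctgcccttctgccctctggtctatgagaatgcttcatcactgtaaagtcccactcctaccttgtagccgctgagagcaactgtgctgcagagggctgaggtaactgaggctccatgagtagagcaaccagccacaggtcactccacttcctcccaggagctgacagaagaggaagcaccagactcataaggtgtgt
Cd177: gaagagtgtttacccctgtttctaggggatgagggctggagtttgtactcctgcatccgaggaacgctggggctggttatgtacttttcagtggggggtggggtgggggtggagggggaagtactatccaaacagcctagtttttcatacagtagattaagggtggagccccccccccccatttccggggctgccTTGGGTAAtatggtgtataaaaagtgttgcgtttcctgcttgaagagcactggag
They cover chr9:110419558-110419746 for Ngp, chr9:111019042-111019270 for Ltf, chr9:109849618-109849706 (minus strand) for Camp, chr16:96443620-96443864 (minus strand) for Itgb2l and chr7:24760312-24760561 (minus strand) for Cd177. Over the whole 250 bases before the start, 5 of 6 genes searched held the motif: Ngp, Ltf, Itgb2l, Cd177 and Lcn2, whose promoter is not printed. Camp held none in that window. Of all 32851 mouse promoters of the same length 36.8% held it, so a match is common and is given as a description.

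The 2 libraries differed in what the comparison neutrophils were. The day 1 neutrophils held 2108575 gene UMIs in all and those of the pool 37929153. Granule-rich and comparison cells had near median depths in the day 1 library (5275 and 5028 UMIs), whereas in the pool granule-rich cells were deeper (10555 and 3773). All 12 neutrophil markers were detected in the granule-rich cells of both libraries. All 12 were also detected in the comparison cells and in the kept cells that were not taken as neutrophils. Their detection thus does not tell these sets apart. In the day 1 library 68 of the 230 comparison cells had less than 2% of their UMIs from S100a8 and S100a9. The 15 monocyte and macrophage markers summed to 2142 CPM (the set's UMIs scaled to a total of 1000000) in these comparison cells against 736 CPM in the granule-rich cells, where 13 of the 15 were detected. The same sums in the pool were 3195 and 3058 CPM, and 10 of 15 were detected in granule-rich cells. Single cells ranged from 0 to 0.336% of UMIs for these markers in day 1 granule-rich cells and up to 1.05% in the comparison cells. Those ranges in the pool were 0.0474 to 0.876% and up to 3.63%. Of the other marker lists, B cell, NK cell, eosinophil, mast cell and basophil, and fibroblast markers were at 0 UMIs in the granule-rich cells of both libraries, and erythroid and cardiomyocyte markers were at 0 in those of the pool. The day 1 granule-rich cells held 131 UMIs of dendritic cell markers (296 CPM, against 435 CPM in the comparison), 49 of erythroid, 12 of endothelial, 4 of cardiomyocyte and 1 of T cell markers. Those of the pool held 22 of dendritic cell, 2 of T cell and 2 of endothelial markers.

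In the pool 3 granule-rich cells stood apart by depth, with 28519, 29531 and 40286 UMIs, where the other 12 had 4409 to 18477. Of these 3 deep cells 2 carried several hashtags, a sign of more than 1 cell under a barcode. They held 53, 144 and 353 UMIs of the monocyte and macrophage markers, and the other 12 held 5 to 22. Without them the summed marker level of granule-rich pool cells was 1053 CPM. Granule-rich cells of the day 1 library had no hashtags, and doublets among them were not tested. No barcode of a granule-rich cell recurred among those of another library, although the pool shared 28 barcodes with the CD11b+ heart pool and the day 1 library shared 2 with day 3 and 1 with steady state.

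A stricter setting, chosen after seeing the data, is given beside the results that it changes most. In it both sets keep only cells with at least 10% of their UMIs from S100a8 and S100a9, called the stricter S100 setting. This left 72 granule-rich and 51 comparison cells in the day 1 library, and 14 and 5074 in the pool. The monocyte and macrophage sums were then 710 and 1015 CPM in the day 1 library and 1798 and 901 CPM in the pool.

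Most granule-rich cells of the series were found in the day 1 library. The same limits found 0 of 5 neutrophils in the CD45+ steady state library, 0 of 140 at day 3, 0 of 35 at day 5 and 1 of 22 at day 7. A count of 0 of 140 allows a share of up to 2.60%, and 0 of 5 allows up to 52.2%. A CD11b+ heart pool with hashtags for days 1, 3 and 5 after infarction held 1 granule-rich cell in 1238 neutrophils, with the Ly6G antibody limit applied there too. That cell carried the day 3 hashtag (1 of 676), and there were 0 of 220 at day 1, which allows up to 1.66%, and 0 of 201 at day 5. The counting intervals of the 2 day 1 samples, 20.8 to 30.8% and up to 1.66%, did not overlap, which compares 2 single libraries. They differed in the sort, in the step that lowered neutrophils, in chemistry (version 2 and version 3) and in the mice, and these cannot be told apart.

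In the blood and heart pool the granule-rich cells were spread over the hashtags. Hashtag 5 held 4 of 928 neutrophils (0.431%; 0.118 to 1.10%), Hashtag 4 held 3 of 1018, Hashtag 2 held 3 of 1157, Hashtag 3 held 2 of 1036 and Hashtag 6 held 1 of 609 (0.164%). Hashtag 1 held 0 of 1021, which allows up to 0.361%, and Hashtag 7 held 0 of 292, which allows up to 1.26%. The other 2 cells were among 1022 neutrophils with several hashtags. The intervals of all 7 hashtags overlapped.

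**Figure D1:**
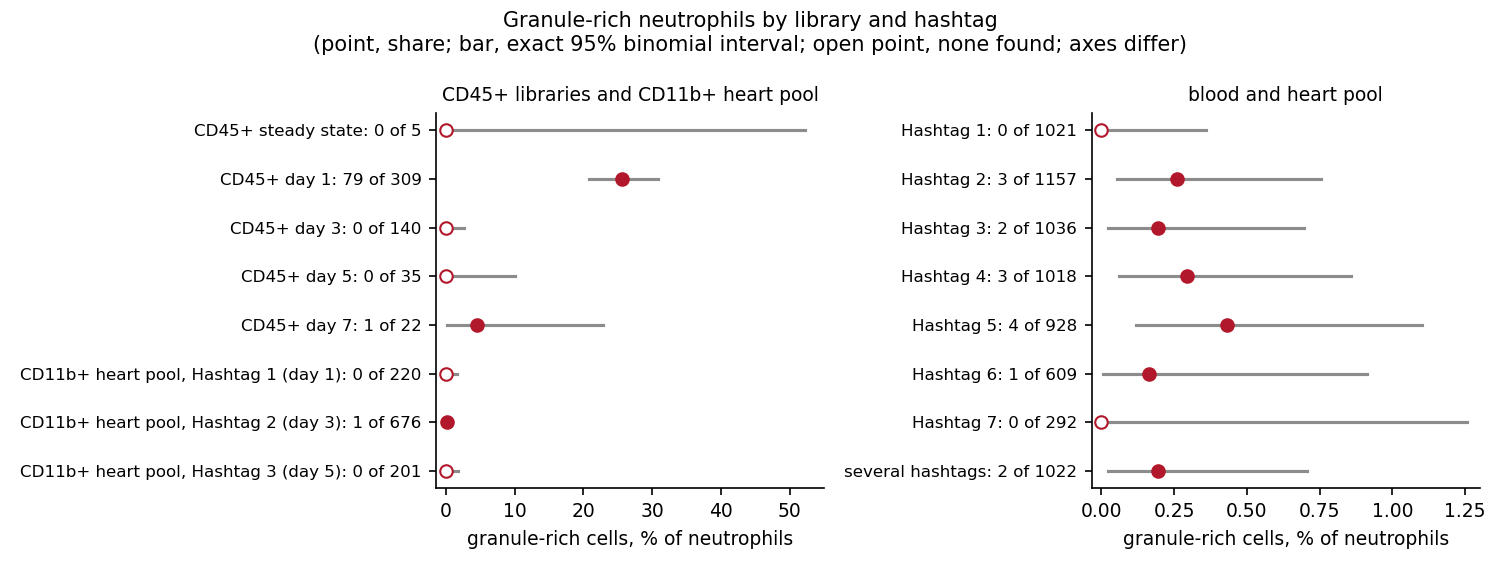
Share of granule-rich cells among neutrophils (x axis, %) for each CD45+ library and each day hashtag of the CD11b+ heart pool (left) and each hashtag of the blood and heart pool (right); points are shares with exact 95% binomial intervals, open points are counts of 0, and the axes differ. The CD45+ day 1 library stands at 25.6%, and every hashtag of the blood and heart pool lies at or under 0.431%.

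The values that chose the cells are given as a description. In the day 1 library Ngp, Camp and Ltf made up 0.506% of UMIs in the lowest granule-rich cell, 2.23% in the median and 11.1% in the highest. The pool cells ranged from 0.515 to 11.4% with a median of 2.13%. The limit fell on a slope in the day 1 library. The nearest cells inside it stood at 0.506, 0.527 and 0.543% and the nearest outside at 0.494, 0.480 and 0.466%, with 9 cells between 0.25 and 0.5% and 20 between 0.5 and 1%. The nearest pool cells inside were 0.515, 0.540 and 0.544% and the nearest outside 0.457, 0.412 and 0.390%. Free RNA can give UMIs of these genes in cells that do not express them, and this background differed between libraries. Cells with under 20 UMIs of S100a8 and S100a9 held 0.0178% of their UMIs from the 3 genes in the day 1 library, and 58.5% of these cells had at least 1 such UMI at a median depth of 4930, against 83.8% of all neutrophils at a median of 5227. The corresponding shares in the pool were 1.46% at a median depth of 12143 and 9.44% at 3774. The 0.5% limit itself lies above this background share, which was 0.0178% in the day 1 library and 0.000127% in the pool. That granule-rich cells stand above it is thus set by the rule, and the part of free RNA was not tested.

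**Figure D2:**
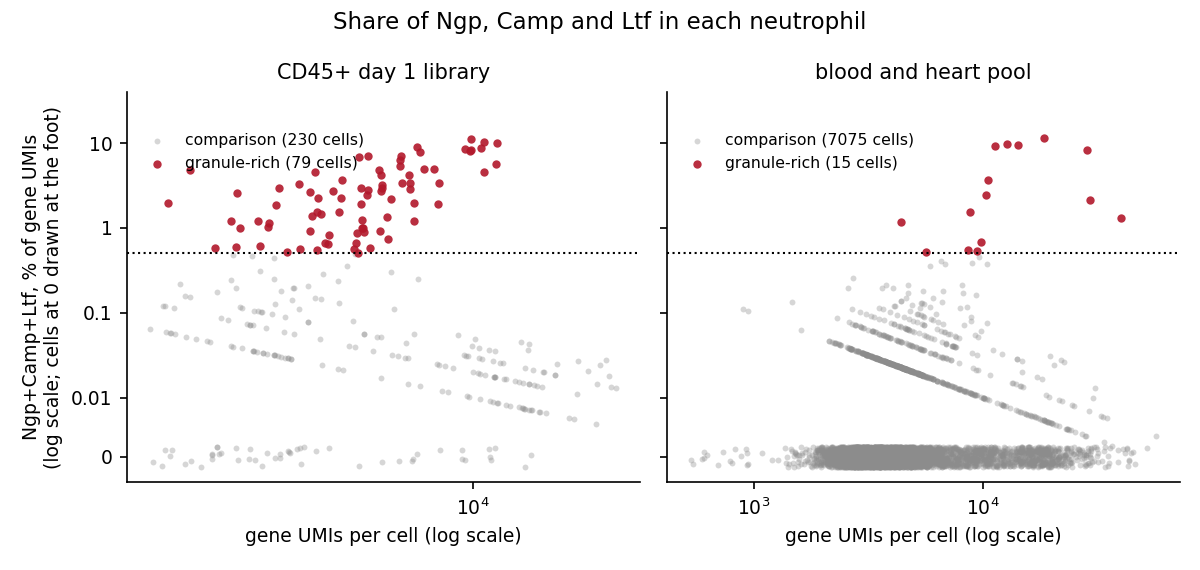
Ngp, Camp and Ltf as a percent of gene UMIs (y axis, log scale, cells at 0 drawn at the foot) against gene UMIs per cell (x axis, log scale) for every neutrophil of both libraries; the dotted line is the 0.5% limit. Red points are the 79 and 15 granule-rich cells, and grey points are the 230 and 7075 comparison cells; most comparison cells of the pool lie at 0.

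The 3 genes were not present in the same proportions in the granule-rich cells of both libraries. The day 1 library counts transcript 3' ends, so its UMIs do not grow with transcript length. The chemistry of the pool was not given in the sources used here. Day 1 granule-rich cells held 14941 UMIs of Ngp, 1818 of Camp and 824 of Ltf. Ngp thus gave 85.0% of the sum, and it outnumbered Camp in 79 of 79 cells. Pool granule-rich cells held 4147 UMIs of Ngp, 4769 of Camp and 1364 of Ltf, so that Ngp gave 40.3% and Camp 46.4%, and Ngp outnumbered Camp in 8 of 15 cells. Without the 3 deep cells Ngp gave 41.3% and Camp 44.2%, and Ngp outnumbered Camp in 8 of 12 cells. Camp was at 0 in 20 of the 79 day 1 cells and in 2 of the 15 pool cells, and Ltf in 35 and 3. In comparison neutrophils Ngp gave 91.8% and Camp 4.04% of the sum in the day 1 library, and 87.4 and 6.02% in the pool. In kept cells not taken as neutrophils these were 85.6 and 8.97% in the day 1 library and 35.0 and 54.9% in the pool.

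The proportions also differed along the share of the 3 genes, which describes the values that chose the cells. Ngp UMIs per Camp UMI in the day 1 library numbered 36.9 in cells with 0.5 to 1% (20 cells), 24.1 with 1 to 2% (17 cells), 14.5 with 2 to 5% (27 cells) and 5.90 with 5% or more (15 cells). The ratio in the pool was 6.83 in the 4 cells with 0.5 to 1%, 1.05 in 3 cells with 1 to 2%, 0.741 in 3 cells with 2 to 5% and 0.838 in the 5 cells with 5% or more. The last 3 of these ranges each held 1 of the 3 deep cells, and Camp outnumbered Ngp in each of those cells. Without the deepest, at the stricter S100 setting, the pool ratio with 1 to 2% was 2.78 in 2 cells. The 4 pool cells of highest share had 824, 509, 595 and 337 UMIs of Ngp and 1040, 532, 513 and 541 of Camp. The highest day 1 cell had 737 of Ngp and 238 of Camp among 9880 UMIs. At 5% or more, Camp stood at 11093 CPM in the day 1 library and at 44582 CPM in the pool, and Ltf at 5562 and 13099 CPM. The libraries differ in tissue and sort, and the source of this difference was not tested.

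Granule-rich cells had fewer detected genes at equal depth, which the rule partly sets, since UMIs of its 5 genes were counted in that depth. Thinned to 1500 UMIs per cell, they had a median of 465 genes in the day 1 library against 560 in the comparison. In the pool the medians were 558 and 706, with 31 comparison cells too shallow to enter. Unthinned, the medians were 1060 and 1093.5 genes in the day 1 library and 1948 and 1295 in the pool. S100a8 and S100a9 took a median of 22.8% of UMIs in day 1 granule-rich cells against 4.66% in comparison cells, and 34.3 against 16.9% in the pool, which the rule partly sets.

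Across genes, levels were compared as CPM of summed UMIs, among genes with at least 50 CPM in the higher set and outside the 5 genes of the rule. The rule used these same cells, so the counts describe them and nothing is read from their size. A gene is counted when it differed at least 2-fold. In the day 1 library 197 of 2093 genes (9.41%) were higher and 818 (39.1%) lower in granule-rich cells. In the pool 134 of 2906 (4.61%) were higher and 645 (22.2%) lower. Of 1616 genes compared in both libraries, 31 (1.92%) were higher and 70 (4.33%) lower in both. Among these 1616 genes 171 were higher in the day 1 library and 62 in the pool, and the 31 were 18.1% and 50.0% of them. The median log2 ratio over all compared genes was -0.61 in the day 1 library and -0.40 in the pool. Without the 5 genes of the rule in the totals the counts became 69 higher and 39 lower, and with the median set to 0 they became 65 and 28. Without pool barcodes above 20000 UMIs they were 42 and 256, and the pool then had 6.01% of genes higher and 41.9% lower. With the stricter S100 setting 32 were higher (2.32%) and 50 lower (3.62%) of 1381. That setting gave 6.81% of genes higher and 17.9% lower in the day 1 library, and 11.8% higher and 26.9% lower in the pool. Of the 31 higher genes 21 remained so, and of the 70 lower genes 21.

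The 12 genes with the highest mean ratio over both libraries were Itgb2l, Serpinb1a, Adpgk, Ifitm6, Syne1, Cd177, S1pr4, Ankrd22, Ceacam10, Acvrl1, Ly6g and Mapk13. Itgb2l, which encodes an integrin beta 2-like chain, stood at 160.2 CPM against 2.40 in the day 1 library, a 66.7-fold difference (log2 6.06, counting interval 4.64 to 7.97). In the pool it stood at 256 against 4.85 CPM, 52.7-fold (log2 5.72, 5.27 to 6.16). The day 1 ratio was 3.58 under the stricter S100 setting. Per cell it ranged from 0 to 6.12 UMIs per 10000 with a median of 0 in day 1 granule-rich cells, and from 0 to 7.72 with a median of 1.62 in the pool. Comparison cells had medians of 0 in both and reached 2.83 and 5.03, so single cells overlapped. Cd177, a surface glycoprotein that neutrophils keep in specific granules, stood at 997 against 103 CPM in the day 1 library (log2 3.27, 3.01 to 3.53) and at 826 against 80.5 in the pool (log2 3.36, 3.14 to 3.57). Its median was 6.78 UMIs per 10000 in day 1 granule-rich cells (range 0 to 56.5) and 8.57 in those of the pool (1.78 to 19.0), against 0 in both comparison sets. Under the stricter S100 setting the day 1 levels were 1036 against 326 CPM (log2 1.67). Ifitm6, an interferon-induced transmembrane family member, had the most UMIs of the 12. It stood at 5155 against 279 CPM in the day 1 library (log2 4.21) and at 3511 against 434 in the pool (log2 3.02). Every granule-rich pool cell held Ifitm6, from 12.9 to 75.8 UMIs per 10000, and the comparison cells reached 68.7. At the stricter S100 setting its day 1 levels were 5352 against 1201 CPM (log2 2.16).

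The other genes of this set include a protease inhibitor, receptors and a kinase. Serpinb1a, an inhibitor of neutrophil serine proteases, stood at 203 against 22.2 CPM in the day 1 library and 409 against 15.9 in the pool. Adpgk, an ADP-dependent glucokinase, stood at 97.0 against 11.4 CPM and 462 against 23.8. Syne1, which encodes a nuclear envelope protein, stood at 60.9 against 4.20 CPM and 512 against 64.3. S1pr4, a sphingosine 1-phosphate receptor, had log2 ratios of 4.13 and 1.94, and Ceacam10, of the carcinoembryonic antigen family, of 3.53 and 1.90. Ankrd22 had 3.91 and 1.83, Acvrl1, a receptor of the TGF-beta family, had 2.78 and 2.56, and Mapk13, the p38 delta kinase, had 3.34 and 1.61. Ly6g, which encodes the surface antigen used in the sort, stood at 74.5 against 12.6 CPM in the day 1 library and 849 against 131 in the pool. Within the stricter S100 setting Ly6g had a log2 ratio of 0.03 in the day 1 library and 1.91 in the pool, while the other 11 stayed at 1.52 or more in the first and 1.37 or more in the second. In day 1 comparison cells of that setting Itgb2l, Serpinb1a, Adpgk and Syne1 stood at 24.8 CPM or less, whatever the Ngp, Camp and Ltf share. Their day 1 ratios there rest on few comparison UMIs. Within the 5 hashtags that held granule-rich cells, Itgb2l, Adpgk, Cd177, Ifitm6, Syne1, S1pr4, Ly6g and Mapk13 were higher in 5 of 5, Serpinb1a, Ankrd22 and Ceacam10 in 4 and Acvrl1 in 3.

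The 12 genes lowest in both libraries were Arg1, Tmem176b, Fn1, Ccl2, Amica1, Il1b, Saa3, Sirpb1b, Sirpb1c, Ms4a6d, Clec4n and Cxcl2. Il1b, the cytokine interleukin-1 beta, stood at 2967 CPM in granule-rich against 9435 in comparison cells of the day 1 library (log2 -1.67, counting interval -1.75 to -1.59). In the pool it stood at 58.4 against 2209 CPM (log2 -5.24, -6.15 to -4.47). Granule-rich cells of the day 1 library held a median of 14.8 Il1b UMIs per 10000 (0 to 179) and the comparison cells 85.2. The pool medians were 0 (0 to 3.51) and 22.1, and 12 of the 15 cells had no Il1b UMI. Cxcl2, a chemokine that draws neutrophils, stood at 11761 against 28962 CPM in the day 1 library (log2 -1.30). In the pool it was at 1 UMI in granule-rich cells against 115 CPM (log2 -4.67, -9.98 to -2.20). Amica1 (Jaml), a junctional adhesion molecule-like protein, had log2 ratios of -3.24 and -4.01, and Sirpb1b, a signal regulatory protein, of -3.27 and -3.21. Il1b and Amica1 kept ratios of -1.78 and -3.14 in the day 1 library under the stricter S100 setting, and of -5.19 and -4.14 in the pool.

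Part of this set was high where monocyte transcripts were high, in the day 1 comparison cells. Arg1, arginase 1, stood at 97.0 against 2559 CPM in the day 1 library and at 0 UMIs against 126 CPM in the pool, at least 9.38-fold lower. Ccl2, a chemokine that draws monocytes, stood at 253 against 6621 CPM in the day 1 library (log2 -4.71). Under the stricter S100 setting, where monocyte markers were 710 against 1015 CPM, the day 1 ratios were -0.09 for Arg1 and -0.42 for Ccl2, and neither was 2-fold different. In the pool, granule-rich cells of that setting held 0 UMIs of Arg1, Ccl2, Ms4a6d and Clec4n, against 2.34, 3.98, 8.57 and 32.0 CPM in comparison cells, so no ratio is given for these genes there. Fn1, fibronectin, kept -4.05 and -2.41, and Saa3, serum amyloid A3, had -1.66 and -0.53 there. Clec4n, the receptor dectin-2, had -1.85 in the day 1 library. Sirpb1c kept -2.38 and -2.61. Tmem176b and Ms4a6d were -2.29 and -2.16 in the day 1 library, and Tmem176b was 0.12 in the pool, on 1 UMI in granule-rich cells. The part of other cells in these differences was not tested beyond this setting.

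For the gene lists that follow, the shares over all compared genes were 9.41% higher and 39.1% lower in the day 1 library. In the pool they were 4.61% higher and 22.2% lower. At the stricter S100 setting they were 6.81 and 17.9% in the day 1 library and 11.8 and 26.9% in the pool. Specific granule genes outside the rule were partly higher. Of the list of 23 genes, 20 were outside the rule and in the files. Of these 14 could be compared in the day 1 library, of which 6 were higher and 2 lower, with a median log2 ratio of 0.75 against -0.61 over all genes. At the stricter S100 setting 6 were higher and 0 lower, and the medians lay closer, at 0.24 and -0.22. In the pool 15 could be compared, of which 9 were higher and 0 lower, with a median of 1.71 against -0.40. Cd177, Ceacam10, Mmp8 and Itgb2l were higher in both. Mmp8, neutrophil collagenase, stood at 1647 against 390.3 CPM in the day 1 library and 1661 against 522 in the pool. Its day 1 log2 ratio of 2.08 was 1.42 under the stricter S100 setting. Lcn2, which encodes the siderophore-binding lipocalin 2, differed between the libraries. It stood at 11071 against 7006 CPM in the day 1 library (log2 0.66) and at 12634 against 1823 in the pool (log2 2.79). Within the stricter S100 setting its day 1 ratio was -0.36, opposite in sign. Set across the 2 libraries, which were made and scaled separately, its level in granule-rich cells was close and that in the comparison cells was not. Pglyrp1, a peptidoglycan recognition protein, stood at 2631 against 186 CPM in the day 1 library (log2 3.82, and 1.88 under the stricter S100 setting) and at 2653 against 1459 in the pool (log2 0.86). Chil3, a chitinase-like protein, had log2 ratios of -0.25 and 2.64, and Lyz2, lysozyme 2, of -2.46 and 0.97. Under the stricter S100 setting these were -0.07 and 5.17 for Chil3 and -0.97 and 1.73 for Lyz2. By the share of Ngp, Camp and Ltf, day 1 Chil3 stood at 9851 CPM at 0, 5802 under 0.1% and 2012 with 0.1 to 0.5%. Above the limit it stood at 1734 with 0.5 to 1%, 2473 with 1 to 2%, 3593 with 2 to 5% and 10906 with 5% or more. Lyz2 is also a monocyte transcript, and it stood at 2964 CPM in the day 1 comparison cells.

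Among azurophil granule genes, Mpo, Elane and Ctsg, the myeloperoxidase and 2 serine proteases of these granules, were at 0 UMIs in the granule-rich cells of both libraries. A count of 0 allows up to 6.77 CPM in the day 1 library and 13.5 CPM in the pool. Of 10 azurophil granule genes only 2 could be compared in each library: none was higher and 1 was lower, Calr in the day 1 library (log2 -2.40) and Srgn, the granule proteoglycan, in the pool (log2 -2.22). Srgn gave 7457 of the list's 7538 CPM in day 1 granule-rich cells and 673 of 925 CPM in those of the pool. Of 18 gelatinase granule and secretory vesicle genes 13 could be compared. Day 1 cells had 3 of them higher and none lower, namely Mmp9, gelatinase B, at 684 against 105 CPM (log2 2.70), Padi4, the histone-citrullinating enzyme, at 94.8 against 4.20 CPM (log2 4.49) and Fpr1, a formyl peptide receptor (log2 1.74). At the stricter S100 setting 2 were higher, with ratios of 1.29 for Mmp9, 4.43 for Padi4 and 0.46 for Fpr1. In comparison cells of that setting Padi4 stood at 9.51 CPM with above 0 and under 0.1% of UMIs from Ngp, Camp and Ltf. It was at 0 in the other comparison cells, so its ratio there rests on very few UMIs. In the pool none was higher and 2 were lower, with Mmp9 at 1899 against 1638 CPM (log2 0.21).

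The list of immature neutrophil genes, chosen with earlier results of these cells known, held 8 of the 31 genes that were higher in both libraries. Of 14 compared in the day 1 library 9 were higher and none lower (median log2 2.28), and in the pool 13 of 15 (median 2.64). In both, Cd177, Ifitm6, Syne1, Mmp8, Adpgk, Wfdc21, Ly6g and Anxa1 were higher. Anxa1, annexin A1, stood at 2452 against 295 CPM in the day 1 library and at 2501 against 673 in the pool. Its day 1 log2 ratio of 3.06 was 2.47 under the stricter S100 setting. Cebpe, which encodes C/EBP epsilon, stood at 144 against 18.9 CPM in the pool (log2 2.93). It stood at 31.6 in the day 1 library against 24.6 CPM, under the level needed to be compared. Within the stricter S100 setting 6 of 15 were higher in the day 1 library and 13 of 15 in the pool.

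Receptors of mature neutrophils were low in the pool's granule-rich cells. Of 20 genes for receptors of maturity and egress, 15 could be compared there, of which 1 was higher and 8 lower (median log2 -1.11). Csf3r, the receptor of granulocyte colony-stimulating factor, stood at 373 against 2646 CPM (log2 -2.83, -3.16 to -2.52). Cxcr2, the receptor for neutrophil-attracting chemokines, stood at 418 against 1822 CPM (log2 -2.13, -2.43 to -1.83). For the day 1 library 17 could be compared, of which 4 were higher and 2 lower (median 0.09), and Csf3r stood at 54.2 against 51.0 CPM. By the share of Ngp, Camp and Ltf, day 1 Csf3r stood at 74.9 CPM at 0, 40.0 under 0.1% and 120 with 0.1 to 0.5%. Above the limit it stood at 78.3 with 0.5 to 1%, 80.2 with 1 to 2% and 72.9 with 2 to 5%. The 15 cells with 5% or more held 0 UMIs of it. Under the stricter S100 setting the day 1 balance turned to 1 higher and 3 lower (median -0.53). Of the 10 neutrophil identity genes, 9 were higher and none lower in the day 1 library, and 2 were higher and 4 lower in the pool. At the stricter S100 setting these counts became 2 and 0 in the day 1 library, and 2 and 5 in the pool. Retnlg, a resistin-like secreted protein and the one with the most UMIs, stood at 24042 against 4329 CPM in the day 1 library and 16886 against 9695 in the pool. Its day 1 log2 ratio of 2.47 was 0.33 under the stricter S100 setting.

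Cytokine genes were mostly lower in granule-rich cells of both libraries. Of 22 inflammatory cytokine and feedback genes, 21 could be compared in the day 1 library, of which 2 were higher and 14 lower (median log2 -1.48). In the pool 12 could be compared, of which none was higher and 10 were lower (median -2.66). Over all compared genes 39.1% were lower in the day 1 library and 22.2% in the pool. Il1b, Cxcl3, Cxcl2, Nlrp3, Ccl9, Ccl6 and Socs3 were lower in both. Cxcl3, a chemokine like Cxcl2, stood at 3508 against 12917 CPM in the day 1 library (log2 -1.88). Socs3, a feedback inhibitor of cytokine receptors, had log2 ratios of -2.33 and -3.11, and Ccl6, a CC chemokine, of -1.51 and -2.18. Within the stricter S100 setting 15 of 21 were lower in the day 1 library and 9 of 10 in the pool, with none higher. Of 20 transcription factors, 13 could be compared in the day 1 library and 14 in the pool. In each 5 were lower, near the share over all genes in the day 1 library, and 1 was higher. Junb (log2 -1.22 and -2.22) and Fos (-2.78 and -3.07) were lower in both. Of 17 genes of cell death and survival, 14 could be compared in each library: 1 was higher and 4 lower in the day 1 library and 6 were lower in the pool, with the antiproliferative gene Btg1 lower in both.

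Interferon response and stefin A genes differed in opposite directions in the libraries, as did 43 genes in all that were higher in the day 1 library and lower in the pool. Of the 1616 genes compared in both, 6 were lower in the day 1 library and higher in the pool. Under the stricter S100 setting these counts were 10 and 41 of 1381. Of 20 interferon response genes, 6 of 10 compared were higher and 1 lower in the day 1 library (median log2 1.09), whereas 0 of 14 were higher and 10 lower in the pool (median -1.91). Ifitm1, an interferon-induced transmembrane protein, stood at 2396 against 834 CPM in the day 1 library and at 242 against 4006 CPM in the pool. Isg15, a ubiquitin-like modifier, stood at 449 against 202 CPM and at 3 UMIs (13.5 CPM) against 215 CPM. Of the 8 genes of the stefin A list, 5 of 7 were higher and 1 lower in the day 1 library, and 1 of 6 was higher and 5 lower in the pool. Stfa1, a cysteine protease inhibitor, stood at 289 against 58.8 CPM and at 1 UMI against 153 CPM, while Stfa2 was higher in both (log2 1.59 and 2.16), although all 26 of its UMIs in granule-rich pool cells came from 1 cell. At the stricter S100 setting the day 1 medians were -0.10 for interferon and 0.10 for stefin A genes, with 0 of 11 and 3 of 7 higher. The pool medians were then -1.90 and -2.07.

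Genes of protein synthesis, secretion and glycolysis were mostly lower in granule-rich cells of the day 1 library and mostly within 2-fold in the pool. Of 83 ribosomal protein genes compared in the day 1 library 81 were lower and none higher (median log2 -2.35), and in the pool 0 of 83 differed 2-fold (median -0.28). The stricter S100 setting left 49 of 82 lower in the day 1 library and gave 13 of 82 higher in the pool. Of 24 secretory pathway genes, which carry granule proteins into the endoplasmic reticulum, 20 were lower in the day 1 library (median -1.58) and 0 of 21 differed in the pool. With the stricter setting 9 of 21 were lower and 7 of 18 higher, respectively. Of 18 glycolysis and hypoxia genes, 10 of 16 were lower in the day 1 library and 3 of 14 in the pool. The share over all compared genes was 39.1% lower in the day 1 library and 22.2% in the pool, so the pool count is near it. Slc2a1, a glucose transporter, and Bnip3 were lower in both. Of 7 NADPH oxidase genes in the files, 2 were higher in the day 1 library and 1 in the pool, none in both. Of 10 S100 and annexin genes outside the rule, 3 were higher and 3 lower in the day 1 library and 2 were higher in the pool, Anxa1 and Anxa3 in both.

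Proliferation genes were scarce. Of 24 cell cycle genes only 5 in each library reached the level to be compared. Of these, 2 were lower in the day 1 library and 1 in the pool, with the tubulin gene Tubb5 lower in both. These counts are near the shares over all compared genes, 39.1% lower in the day 1 library and 22.2% in the pool. Mki67, a marker of cycling cells, was at 0 UMIs in the granule-rich cells of both libraries, which allows up to 6.77 and 13.5 CPM. In comparison cells it had 1 and 117 UMIs. Top2a, a topoisomerase of dividing cells, had 0 UMIs in the day 1 library and 1 UMI in the pool.

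Levels differed by degrees with the share of Ngp, Camp and Ltf and on both sides of the 0.5% limit. Cd177 of the day 1 library stood at 125 CPM in the 50 cells at 0, 70.0 in cells above 0 and under 0.1% (143 cells), 407 with 0.1 to 0.5% (37 cells), 481 with 0.5 to 1%, 709 with 1 to 2%, 868 with 2 to 5% and 1677 with 5% or more. Ifitm6 stood at 137, 198, 1397, 2148, 3784, 5337 and 7840 CPM over the same bands, and Anxa1 at 187, 304, 407, 660, 1190, 2347 and 4564. Itgb2l went from 0 UMIs in the cells at 0 and 1.54 CPM in the next band to 273 in the last, and Padi4 from 4.16 and 3.85 to 156. Within the stricter S100 setting Cd177 stood at 69.2 CPM in the 9 cells at 0, and then at 285, 471, 514, 736, 888 and 1677. Retnlg did not follow them: it stood at 27533 CPM with 0.1 to 0.5%, at 31404 with 1 to 2% and at 13106 with 5% or more. Il1b went the other way, from 10633 CPM at 0, 9184 with under 0.1% and 9731 with 0.1 to 0.5% to 5582, 3449, 2135 and 1841. The band under 0.1% was deeper (median 9622 UMIs) than the cells at 0 (3353) and that of 0.1 to 0.5% (3162) and near the last (9576), and its monocyte and macrophage markers stood at 2300 CPM (2162 in the cells at 0) against 463 to 815 in the bands above it. Their part in these levels was not tested.

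In the pool the bands above the limit held 4, 3, 3 and 5 cells, and those below held 42 and 612, with 6421 cells at 0. Retnlg stood at 35222 CPM in the 42 cells with 0.1 to 0.5%, at 65073 in the 4 with 0.5 to 1% and at 2507 in the 5 with 5% or more. In those 5 cells Lcn2 reached 17669 CPM, Chil3 9584 and Cebpe 246. Srgn and Fth1, ferritin heavy chain, were at 3198 and 6021 CPM in the cells at 0 and at 223 and 902 in those 5. Csf3r stood at 2724 CPM in the cells at 0, at 2097 with under 0.1% and at 1605 with 0.1 to 0.5%. Above the limit it stood at 836 with 0.5 to 1%, 224 with 1 to 2%, 179 with 2 to 5% and 398 with 5% or more. The bands of 1 to 2%, 2 to 5% and 5% or more each held 1 of the 3 deep cells. That of 1 to 2% held the deepest, which carried several hashtags, and the monocyte and macrophage markers of this band stood at 6846 CPM.

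**Figure D3:**
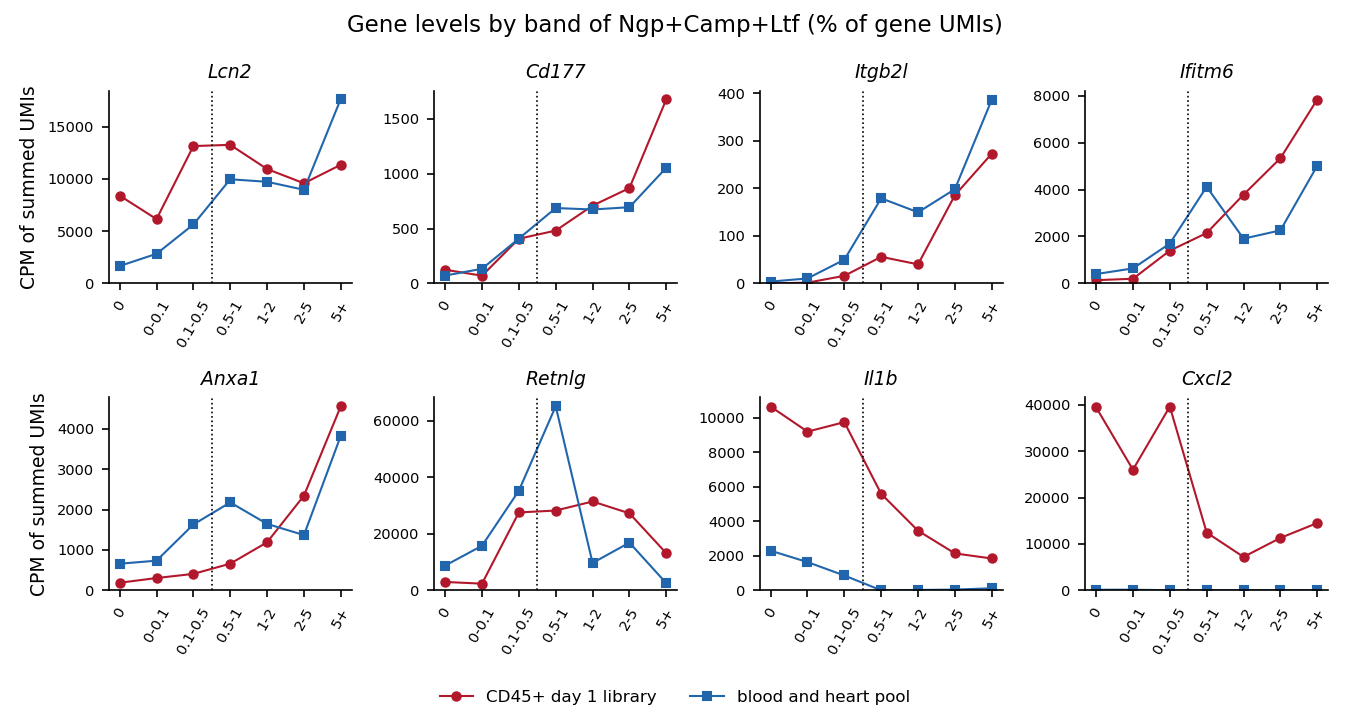
CPM of summed UMIs (y axis, linear) for 8 genes in bands of the Ngp, Camp and Ltf share (x axis, % of gene UMIs) in the day 1 library (red circles) and the blood and heart pool (blue squares); the dotted line marks the 0.5% limit. Cd177, Ifitm6 and Anxa1 of the day 1 library are highest in the last band (1677, 7840 and 4564 CPM), and Il1b is lowest there (1841 CPM); the last band of the pool holds 5 cells.

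Surface antibodies of the pool gave a readout that the rule did not use, Ly6G excepted. CXCR4, the receptor that holds neutrophils in the marrow, was measured at 10 to 30 antibody UMIs in the 15 granule-rich cells, with a median of 16. Comparison cells had a median of 11 with quartiles of 9 and 14. Of the 13 granule-rich cells with 1 hashtag, 12 lay above the median of their own hashtag's comparison cells, at a median percentile of 86.0. CD49d, the integrin alpha 4 chain, ranged from 8 to 152 with a median of 24, against 15 (quartiles 12 and 20), and 11 of the 13 lay above their hashtag's median. Ly6C ranged from 32 to 174 with a median of 62, against 53 (45 and 62), and 10 of the 13 lay above. CD54, the adhesion molecule ICAM-1, had medians of 14 and 16, with 10 of the 13 below, and CD11b medians of 15 and 20, with 8 below.

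The ranges overlapped for each of the 13 antibodies reported. The granule-rich cells were the deeper ones in mRNA, at 10555 against 3773 median UMIs, and whether antibody counts move with depth was not tested. The 3 deep cells had the highest CD11b (115, 152 and 378 UMIs), CD115 (27, 41 and 50) and CD49d (67, 131 and 152) of the 15. Without them the medians of granule-rich cells were 16 for CXCR4, 21.5 for CD49d, 61 for Ly6C, 13 for CD54 and 13.5 for CD11b. Of the remaining antibodies CD115, the receptor of macrophage colony-stimulating factor, had a median of 6 in both sets. Msr1, CD64, IA-IE, CCR3, FCeRIa and SiglecF_Biotin had medians of 6, 5, 4, 17, 20 and 10 in granule-rich and 4, 4, 3, 15, 16 and 8 in comparison cells. Of the 13 cells with 1 hashtag, 6, 7, 7, 10, 10 and 8 lay above their hashtag's median for these 6 antibodies, in this order. Below it lay 5, 4, 3, 1, 3 and 3. Higher counts were thus not particular to CXCR4, CD49d and Ly6C. The mRNA of the same proteins did not always follow: Cxcr4 stood at 179.6 against 229 CPM and Itga4, which encodes CD49d, at 162 against 349.9 CPM.

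**Figure D4:**
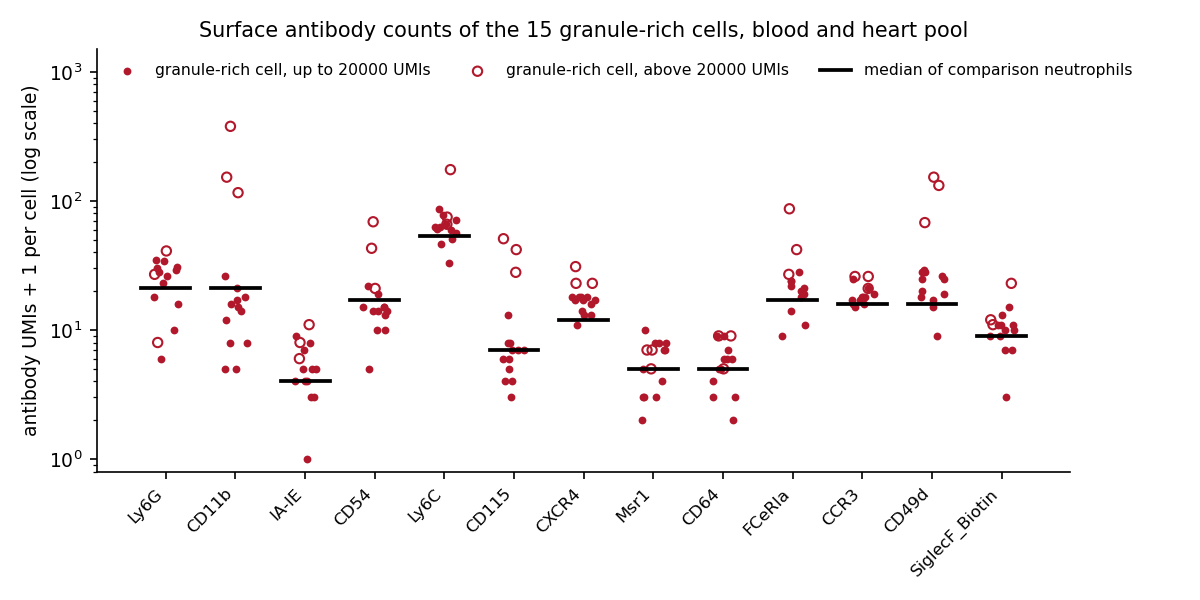
Antibody UMIs plus 1 per cell (y axis, log scale) for 13 surface antibodies in the 15 granule-rich cells of the blood and heart pool; filled points are the 12 cells up to 20000 gene UMIs, open points the 3 above, and bars the median of the 7075 comparison cells. Most CXCR4 and CD49d points lie above the bar, at medians of 16 and 24 against 11 and 15, and the open points are the highest for CD11b and CD115.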

How the data were processed

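The deposited matrices held counts: UMIs per gene and cell barcode, made by the authors, with antibody and hashtag UMIs in both pools. Cell Ranger 3.0.2 was used for both pools, per the file headers; the version for the CD45+ libraries was not given in the sources used here. The build was mm10, per the submitters' processing notes. Gene coordinates are those of GENCODE M21. Granule-rich cells, gene lists and markers were chosen with earlier results of these data known. Limits on cells are given with the results; no doublet caller was run, and in the pool hashtag positives were called with a mixture of 2 Gaussians (scikit-learn 1.9.0, seed 0) on log counts. UMIs were summed over the cells of a set, divided by all gene UMIs and given as CPM. A symbol listed under several identifiers was taken by the one with most UMIs. Where a sum was 0, a floor of 3 counts was used. Intervals are exact at the 95% level (binomial for shares, conditional binomial for ratios) and cover counting error only. With 1 library per condition, no p-value was computed. Named genes were the 12 highest and 12 lowest by mean log2 ratio among those 2-fold different the same way in both libraries, without the genes of the rule and mitochondrial, ribosomal, haemoglobin, Gm and Rik genes, besides members of 16 lists (neutrophil identity; granule sets; immature and mature genes; transcription factors; cell cycle; cytokines; interferon; stefin A; secretion; NADPH oxidase; S100 and annexin; glycolysis; cell death) and 12 marker lists. Alternatives covered the limits, scaling and CPM minimum. One listed gene and its antibody are not reported here. The scripts were checked on simulated data. Python 3.11.15, numpy 2.4.6, scipy 1.17.1, pandas 2.3.3 and matplotlib 3.10.9 were used.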

Additional observations from a re-analysis of the deposited data

Results flagged for a closer look

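These genes of the fixed lists were at least 2-fold higher in granule-rich cells of the day 1 library and at least 2-fold lower in those of the blood and heart pool. The difference between the libraries was not tested, since each is 1 library, and they differ in tissue, sort and comparison cells, which cannot be told apart. Among interferon response genes the log2 ratios were 1.52 and -4.05 for Ifitm1, 1.15 and -4.0 for Isg15, 1.32 and -2.48 for Ifit1, 1.43 and -1.87 for Isg20, and 1.04 and -1.26 for Zbp1. Ifit1 had 0 UMIs in granule-rich pool cells, so its pool value is a limit set by the floor of 3 counts. In the stefin A cluster they were 2.29 and -5.09 for Stfa1, and 1.44 and -1.68 for Stfa2l1. For the protease gene Asprv1, which stands in the same list but lies on chromosome 6, they were 3.01 and -1.25. Among receptors they were 1.15 and -2.13 for Cxcr2, 1.31 and -1.87 for Selplg, an adhesion ligand, 1.11 and -3.03 for Il1rap, a chain of the interleukin-1 receptor, and 1.09 and -2.29 for Il1r2, its decoy. For Bcl2l11, which encodes the death factor Bim, they were 1.13 and -2.52, and for Mxd1, a MYC antagonist, 1.36 and -1.23. With at least 10% of UMIs from S100a8 and S100a9 in both sets, a setting chosen after seeing the data, the day 1 ratio of Asprv1 was 1.84. The day 1 ratios of the other 13 were then between -0.62 (Il1rap) and 0.22 (Mxd1), so none of these 13 was 2-fold different there.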

How the results depend on the processing

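The share of granule-rich cells in the day 1 library was 19.1% with at least 1% of UMIs from Ngp, Camp and Ltf, 20.4% with at least 20 and 31.0% with at least 100 UMIs of S100a8 and S100a9, and 58.5% with at least 10% of UMIs from these 2 genes. Of genes different in both libraries (31 higher, 70 lower), 69 were higher and 39 lower when the 5 genes of the rule left the totals, 65 and 28 with the median ratio set to 0, 51 and 200 with a minimum of 20 CPM, and 17 and 31 with a minimum of 100 CPM. Without pool barcodes above 20000 UMIs 256 were lower and 42 higher. The 10% setting and the last one were chosen after seeing the data. Leaving out each hashtag in turn gave pool shares of 0.179 to 0.247%, 29 to 36 higher genes and 61 to 105 lower genes, with 105 when Hashtag 2 was left out. The log2 ratio of Tmem176b in the pool was 0.12 at the 10% setting, on 1 UMI; the cause was not tested. Arg1 (2.81), Ccl2 (2.05) and Ms4a6d (0.94) there, and Ccl2 (0.43) without barcodes above 20000 UMIs, had 0 UMIs in granule-rich cells, so these values come from the floor of 3 counts and have no direction. Of all alternative values for the 24 named genes, 55 of 96 stayed within the gene's counting interval in the day 1 library and 91 of 144 in the pool. No paired analysis was possible because the labels give the compared sets of cells no shared replicate numbers. Directions within hashtags are given for the 12 highest genes only. The 15 granule-rich pool cells hold 222729 UMIs in all, so genes under 13.5 CPM could not be detected in them reliably.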
